A study of Mus musculus with 10 samples.

Results

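The genes described here are 42 interferon-stimulated and MHC class I genes, a list of interferon-induced antiviral genes and their regulators, interferon-induced GTPases, immunoproteasome subunits and genes of class I antigen loading. They were found on the arrays as gene probes whose accession is paired with one of the 42 symbols in RefSeq. Of the 42 genes, 38 had such a probe and 37 were measured, out of 14478 genes measured in all. Mx1, Mx2, Nlrc5 and Xaf1 had no probe found this way, and Ifit1 was above background on 0 of 10 arrays.

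Interferons are secreted cytokines that bind cell surface receptors and act through JAK kinases, STAT proteins and interferon regulatory factors (IRFs). Type I and type III interferons act mainly at the interferon-stimulated response element, through a complex that holds STAT2 and IRF9, and interferon gamma acts mainly at gamma-activated sites. In the colon, the induced genes serve antiviral defence in epithelial and immune cells, and class I molecules present peptides cut by the proteasome to CD8 T cells.

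The tissue came from 3 mice humanized for CYP1A, the enzymes that activate many dietary carcinogens, and fed the AIN93M diet. At 6 weeks of age every animal was given PhIP, a carcinogen of cooked meat, as 2 doses of 100 mg/kg, followed by 1 week of 1.5% dextran sulfate sodium (DSS) in drinking water, which injures the colon lining, and 8 weeks without treatment. At 16 weeks of age, 7 colon tumors, labelled tubular adenomas with a dominant active Ctnnb1 mutation, and 3 samples of adjacent normal epithelium, labelled wild type for Ctnnb1, were dissected under a microscope. Each animal gave 1 normal sample, beside 3 tumors from mouse 41 (male), 3 from mouse 42 (female) and 1 from mouse 43 (male). The normal samples therefore share the humanized CYP1A background and the PhIP and DSS exposure of the tumors and differ from them in the labelled Ctnnb1 status, and no untreated animal is part of the comparison. Because 7 tumors come from 3 animals, tumors of the same mouse are not independent.

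RNA was read on 10 one-colour oligonucleotide arrays, and a level here is a normalized log2 intensity of the brightest probe of a gene. On each array, 57.7% to 66.7% of the gene probes were above background. All 37 measured genes of the list were above background on all 10 arrays, and none was saturated. Epithelial genes such as Krt8, a keratin, and Cdh1, a cell adhesion protein, were above background on every array. The mouse 42 normal and the mouse 43 tumor stood apart by high levels of squamous keratin genes, with mean deviations of 2.38 and 2.30 on the log2 scale against -0.89 to -0.14 on the other arrays. Without these 2 arrays and without the mouse term, 5 genes of the list were called higher and 8 lower, against 5 and 10 with all arrays. The 5 were 13.5% of the list against 20.9% of all genes in that fit, and the 8 were 21.6% against 19.6%. Irf7 and Oasl2 were the lower genes not called in that fit (adjusted p = 0.066 and 0.056), and Oasl2 was also not called with all 10 arrays once the mouse term alone was dropped. With 10 arrays, their number limits how precise each value is.

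The question of the study was which genes are expressed differently in the tumors. Differences are given as log2 tumor minus normal ± SE from a limma fit with the mouse as a block, for 7 tumors and 3 normals, and a gene is called where its Benjamini-Hochberg adjusted p over all 14478 genes was under 0.05. The list did not move one way. The 3 Ifitm genes were 4.32 to 4.53-fold higher in the tumors, Usp18 was 3.82-fold higher and Ddx58 2.02-fold higher. Irf1, Irf7, Irf8, Ifih1, Trim25, Oas1a, Oas3, Oasl1, Oasl2 and Psmb10 were lower, by 0.44 to 1.13 on the log2 scale. The other 22 measured genes, among them Isg15, the Ifit genes, the guanylate-binding proteins and Tap1, were not called.

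In all, 15 of 37 genes were called, 40.5%, while 49.6% of all 14478 genes were called in this comparison. The 5 higher genes are 13.5% of the list, against 25.9% of all genes called higher. The 10 lower genes are 27.0% of the list, against 23.7% of all genes called lower. How these shares compare depends on the fit. The share of the list that was called lay below the share of all genes in 21 of 28 alternatives and above it in 7, and it was 48.6% against 36.5% where the session of scanning was an added block, 43.2% against 22.3% within the earlier scan session and 40.5% against 36.0% with the tumors averaged per mouse. Of the 37 genes, 6 were called and changed at least 2-fold, 16.2% against 11.4% of all genes. The median difference over the 37 genes was -0.16, and 0.01 over all genes, and the median of the list turned to 0.04 with the spot median and to 0.09 in the authors' deposited table. What set the list beside all genes was its spread. The SD of the 7 tumors had a median of 0.42 over the 37 genes and 0.17 over all genes, and the SD of the 3 normals had medians of 0.37 and 0.12. The SE of the difference had a median of 0.21 over the list and of 0.11 over all genes, so a given change was harder to call in this list.

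**Figure D1:**
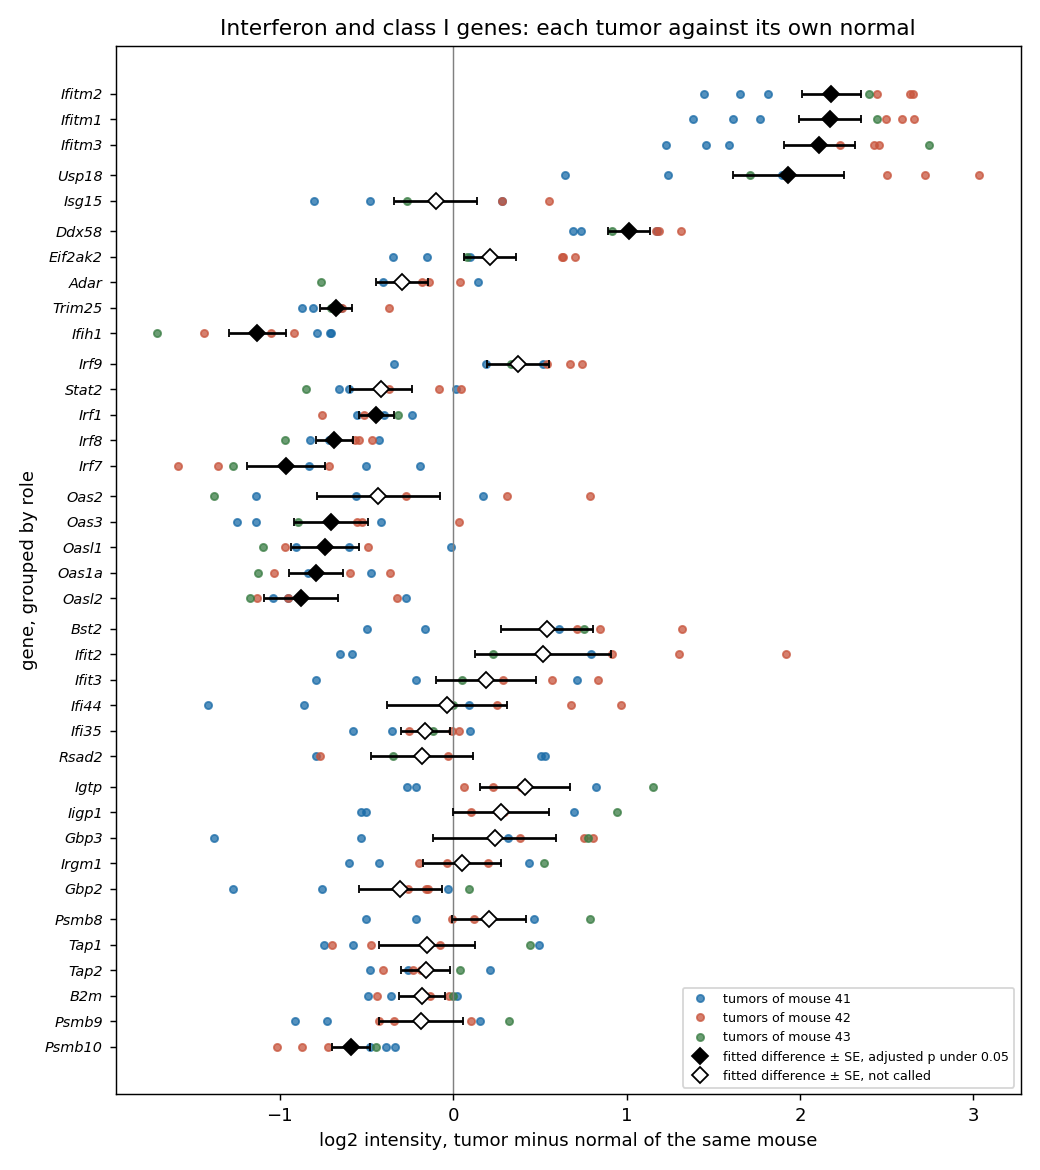
Log2 intensity of each tumor minus the normal sample of the same mouse (horizontal axis, log2 units) for the 37 measured genes, grouped by role. Small circles are the 7 tumors coloured by mouse, diamonds are fitted differences with bars of ± 1 SE, and filled diamonds have an adjusted p under 0.05. The 3 Ifitm genes, Usp18 and Ddx58 lie to the right of 0 in all 7 tumors, while the GTPases and the Ifit genes lie on both sides of it.

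Short stretches of the promoters are shown because genes called higher, called lower and not called carry the same response element letters near their start. RefSeq promoter windows of the GRCm38.p6 assembly, which run from 250 bases before the gene start to 50 bases after it, were available here for 35 of the 42 genes. They were searched on both strands for the core of the interferon-stimulated response element, GAAANNGAAA, and for the gamma-activated site, TTCNNNGAA, and matches were allowed to overlap. The first was found in 18 of 35 genes, 51.4%, against 3.99% of the 27025 genes with a window. The second was found in 11 of 35 genes, 31.4%, against 9.55% of those genes. A match is a description of the letters and not a tested binding site. In the stretches below, each given 5′ to 3′ on the strand of its gene, capitals mark the matches to GAAANNGAAA or to its reverse complement.

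Genes that were called higher carry the following stretches.
Ifitm2, chr7:140955978-140956027, minus strand: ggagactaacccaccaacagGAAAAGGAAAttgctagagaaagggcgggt
Ifitm3, chr7:141010715-141010743, minus strand: gGAAAAGGAAActtctgaGAAACCGAAAc
Ddx58, chr4:40239804-40239833, minus strand: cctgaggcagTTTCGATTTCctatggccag
Genes that were called lower carry these.
Oas1a, chr5:120907526-120907565, minus strand: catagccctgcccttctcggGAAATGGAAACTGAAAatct
Oas3, chr5:120777705-120777754, minus strand: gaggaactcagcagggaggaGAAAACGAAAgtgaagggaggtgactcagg
Ifih1, chr2:62646206-62646233, minus strand: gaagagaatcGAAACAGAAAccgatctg
Genes that were not called carry these.
Isg15, chr4:156200855-156200916, minus strand: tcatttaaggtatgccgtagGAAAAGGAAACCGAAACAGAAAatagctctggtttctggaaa
Ifit3, chr19:34583353-34583436, plus strand: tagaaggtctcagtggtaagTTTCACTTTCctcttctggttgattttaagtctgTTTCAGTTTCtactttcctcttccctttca
Igtp, chr11:58199502-58199551, plus strand: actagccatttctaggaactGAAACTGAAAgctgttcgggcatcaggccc
The Ifitm1 window held no match to either motif, and no window was available here for Usp18. By call, the response element core was found in 3 of 4 higher genes, 3 of 10 lower genes and 11 of 19 genes that were not called.

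The Ifitm genes encode small membrane proteins that hinder the fusion of enveloped viruses with endosomes, and their 3 genes on the list were the most strongly changed. Ifitm1 read 12.59, 12.07 and 11.89 in the normals of mice 41, 42 and 43, and 13.97 to 14.73 in the tumors with a median of 14.35. Every tumor was above every normal, and the difference was 2.17 ± 0.18 (adjusted p = 3.6e-05). Its 2 further probes also passed the threshold, with differences of 1.79 and 1.52. Ifitm2 read 12.09, 11.49 and 11.37 in the 3 normals and 13.53 to 14.15 in the tumors, median 13.90. Again no tumor overlapped a normal, with a difference of 2.18 ± 0.17 (adjusted p = 3.04e-05). Ifitm3 read 12.85, 12.24 and 11.88 in the normals and 14.07 to 14.70 in the tumors, median 14.47. The groups were apart here too, and the difference was 2.11 ± 0.20 (adjusted p = 7.27e-05).

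Each of the 7 tumors exceeded its own normal for all 3 Ifitm genes. The tumors of mouse 41 rose least, by 1.38 to 1.77 for Ifitm1, where the tumors of mouse 42 rose by 2.49 to 2.66 and the tumor of mouse 43 by 2.44. Part of that order lies in the normals, since the normal of mouse 41 was the highest of the 3 for each Ifitm gene. These 3 genes were called under all 28 alternative settings of the processing and of the samples. Fibroblast and macrophage markers rose in the same tumors. All 7 measured fibroblast markers were higher, with a summed linear intensity of 6909 to 9014 in the normals and 15836 to 38594 in the tumors, and 7 of 8 measured macrophage markers were higher, with sums of 13098 to 15236 and 19432 to 28413. Their part in the Ifitm result was not tested. In bulk tissue, more cells of a type and more RNA per cell cannot be told apart. The 3 genes are close paralogs, and cross-hybridization between them was not tested because probe sequences were not used here.

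Of the ISG15 system, Usp18 was higher and Isg15 was not called. Isg15 is a ubiquitin-like protein that is attached to other proteins, and Usp18 removes it and also dampens signalling at the type I interferon receptor. Usp18 read 10.10, 8.82 and 9.49 in the normals and 10.75 to 12.00 in the tumors, median 11.34. The groups did not overlap, and every tumor exceeded its own normal, by 0.64 at the least and 3.03 at the most. The difference was 1.93 ± 0.32 (adjusted p = 0.00102). It was not called when only the arrays of the earlier scan session were used (1.61, adjusted p = 0.056), a fit that holds 3 tumors and 2 normals, since the normal of mouse 43 was dropped with its later-scanned tumor. Isg15 read 11.45, 10.04 and 10.78 in the normals and 9.93 to 11.73 in the tumors, median 10.60. Its 3 normals spanned almost the range of the tumors, 3 tumors were above their own normal and 4 below it, and the difference was -0.10 ± 0.24 (adjusted p = 0.753).

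The RNA sensing genes moved in opposite directions. Ddx58, which encodes the RNA sensor RIG-I, read 8.44, 8.14 and 8.41 in the normals and 9.13 to 9.61 in the tumors, median 9.33. The groups were apart, with a difference of 1.01 ± 0.12 (adjusted p = 0.000206), and a second probe was also called at 0.63. Ifih1, which encodes the related sensor MDA5 of long double-stranded RNA, read 9.95, 9.54 and 9.64 in the normals and 7.93 to 9.25 in the tumors, median 8.62. Every tumor lay below every normal, and the difference was -1.13 ± 0.17 (adjusted p = 0.000547). The tumors of mouse 41 read 9.17 to 9.25, and the tumors of mice 42 and 43 read 7.93 to 8.62.

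Trim25, the ubiquitin ligase that helps activate RIG-I, was lower as well. It read 11.85, 11.60 and 11.55 in the normals and 10.85 to 11.23 in the tumors, median 10.98, without overlap, and the difference was -0.68 ± 0.09 (adjusted p = 0.000427). With the spot median it differed by -0.69 and was not called (adjusted p = 0.0628). Eif2ak2, the double-stranded RNA kinase PKR, differed by 0.21 ± 0.15 and was not called. Adar, which edits double-stranded RNA, differed by -0.29 ± 0.15 and was not called, while its second probe was called at -0.45, so its probes disagree in the call. Ddx58 and Ifih1 depended on the spot value used. With the median instead of the mean pixel of a spot, Ddx58 differed by 0.26 (adjusted p = 0.435) and Ifih1 by -0.37 (adjusted p = 0.189), and in the authors' deposited table by 0.42 and -0.55, neither of them called.

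Among the transcription factors, 3 of 5 measured genes were lower. Irf7, the factor that amplifies type I interferon production, read 11.24, 11.18 and 11.23 in the normals, close to one another. Its tumors read 9.59 to 11.05, median 10.41, all below the normals, and the difference was -0.96 ± 0.22 (adjusted p = 0.00626). Irf7, Usp18 and the Ifitm genes stayed past the threshold with the spot median and in the authors' deposited table, where the Irf7 difference was -1.17 and -1.34. Irf7 was not called without mouse 42 or without the normal of that mouse, which give the same difference of -0.81.

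Irf8, a factor of myeloid and B cells, read 10.50, 10.26 and 10.29 in the normals and 9.33 to 10.07 in the tumors, median 9.72. The groups did not overlap, and the difference was -0.69 ± 0.11 (adjusted p = 0.000841). Irf1, the factor of class I and immunoproteasome genes induced by interferon gamma, read 11.24, 11.04 and 11.33 in the normals and 10.28 to 11.01 in the tumors, median 10.69, without overlap. Its difference was -0.44 ± 0.10 (adjusted p = 0.006), and 2 further probes were called at -0.50 and -0.47. With the spot median, the sign of Irf1 turned to 0.49, and in the authors' deposited table to 0.54, not called in either (adjusted p = 0.317 and 0.296). Irf1 was also not called without mouse 42 (-0.37) or within the earlier scan session (-0.55). Irf8 was likewise not called from spot medians (-0.25) or the authors' deposited table (-0.43). Stat2 and Irf9, partners in the type I interferon complex, differed by -0.42 ± 0.18 and 0.37 ± 0.18 and were not called. Irf9 was called without mouse 41 (0.52) and without tumor 3 of that mouse.

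The OAS family comprises enzymes that sense double-stranded RNA and make the signal that activates RNase L, together with related Oasl proteins, and 4 of its 5 measured genes were lower. Oas1a read 12.09, 11.48 and 11.77 in the normals and 10.45 to 11.62 in the tumors, median 11.11. The highest tumor, tumor 2 of mouse 41, exceeded the lowest normal, but each tumor lay below its own normal. The difference was -0.79 ± 0.16 (adjusted p = 0.00266). Oasl2 read 10.92, 10.003 and 10.65 in the normals and 8.87 to 10.64 in the tumors, median 9.68, and differed by -0.88 ± 0.21 (adjusted p = 0.00785). Oasl1 read 10.30, 9.83 and 10.56 in the normals and 8.86 to 10.29 in the tumors, median 9.40, and differed by -0.74 ± 0.20 (adjusted p = 0.0119). In both genes the groups overlapped while all 7 tumors lay below their own normal.

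Oas3 read 8.51, 7.47 and 8.08 in the normals and 6.91 to 8.09 in the tumors, median 7.26, with 6 of 7 tumors below their own normal. Its difference was -0.70 ± 0.21 (adjusted p = 0.0221), and its dimmer second probe was not called (-0.23). Oas2 differed by -0.43 ± 0.36 and was not called, with normals of 9.23, 7.99 and 9.02 and tumors from 7.64 to 9.41. None of the 4 lower OAS genes was called with the spot median (-0.18 to -0.56) or in the authors' deposited table (-0.16 to -0.71). Oas3 was also not called in 6 other alternatives, among them without mouse 41 (-0.57) and without mouse 43 (-0.64). Oasl1 was not called without mouse 42 (-0.74), without mouse 43 (-0.62), without the normal of either animal, or without the tumor of mouse 43. For both genes, leaving out mouse 43, its normal or its tumor is the same fit. Oasl2 was not called without the mouse term (-0.87). Cross-hybridization among the Oas1 paralogs was not tested.

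The remaining antiviral effectors were not called in either direction. Of the group of Ifit2, Ifit3, Ifi44, Ifi35, Rsad2 and Bst2, differences lay between -0.18 and 0.54. Bst2, or tetherin, which holds budding virus at the cell surface, read 11.45, 10.51 and 10.56 in the normals and 10.96 to 12.06 in the tumors, median 11.32, and differed by 0.54 ± 0.27 (adjusted p = 0.119). Ifit2, which binds viral RNA, read 10.30, 8.23 and 9.38 in the normals and 9.14 to 11.09 in the tumors, median 9.64, and differed by 0.52 ± 0.39 (adjusted p = 0.302). Its normals alone spanned more than 2 log2 units. Ifi35, an interferon-induced regulator of innate signalling, read 9.45, 8.99 and 9.27 in the normals and 8.73 to 9.54 in the tumors, median 9.02, and differed by -0.16 ± 0.14 (adjusted p = 0.366). Without mouse 41, whose normal was the highest for Bst2, Bst2 was called at 0.88 (adjusted p = 0.0111), as it was without that normal or without tumor 3 of mouse 41.

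The interferon-induced GTPases, which attack the vacuoles of intracellular pathogens, were not called either, and their tumors lay on both sides of the normals. Igtp read 9.85, 8.68 and 9.26 in the normals and 8.75 to 10.68 in the tumors, median 9.59, and differed by 0.42 ± 0.26 (adjusted p = 0.214). Gbp2 read 9.33, 8.04 and 8.58 in the normals and 7.78 to 9.30 in the tumors, median 8.06, and differed by -0.31 ± 0.24 (adjusted p = 0.316). Iigp1 read 8.24, 6.83 and 7.37 in the normals and 6.93 to 8.94 in the tumors, median 7.71, and differed by 0.27 ± 0.28 (adjusted p = 0.437). In each of these genes the normal of mouse 41 exceeded the normal of mouse 42 by over 1 log2 unit. Gbp3 and Irgm1 differed by 0.24 ± 0.36 and 0.05 ± 0.23. Gbp3 was called without mouse 41, at 0.70 (adjusted p = 0.0112).

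In the class I group, Psmb10 was the only gene called of 6. Psmb10, an immunoproteasome subunit, read 12.49, 12.40 and 12.65 in the normals and 11.38 to 12.20 in the tumors, median 12.01. No tumor overlapped a normal, the difference was -0.59 ± 0.11 (adjusted p = 0.00189), and a second probe was called at -0.71. With the spot median and in the authors' deposited table the difference was of similar size, -0.68 and -0.84, but not called (adjusted p = 0.204 and 0.115). The other catalytic subunits Psmb8 and Psmb9 differed by 0.21 ± 0.21 and -0.19 ± 0.24 and were not called. B2m, the light chain of class I molecules, read 7.84, 7.43 and 7.39 in the normals and 7.00 to 7.86 in the tumors, median 7.39, and differed by -0.18 ± 0.13 (adjusted p = 0.292). Tap2 read 9.81, 9.69 and 9.69 in the normals and 9.28 to 10.03 in the tumors, median 9.501, and differed by -0.16 ± 0.14 (adjusted p = 0.379). Its partner Tap1 in the peptide transporter differed by -0.15 ± 0.28.

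**Figure D2:**
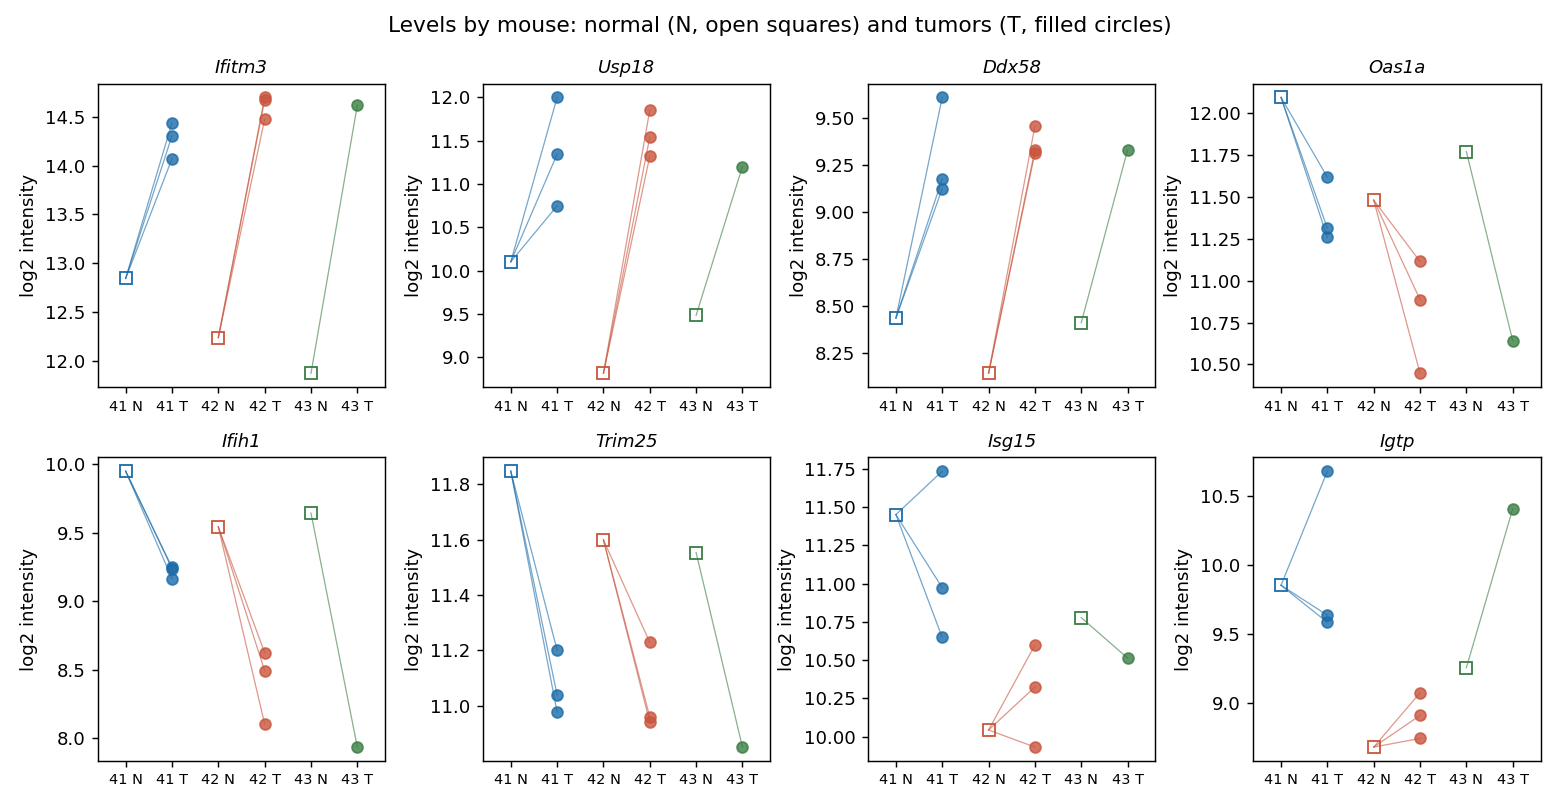
Log2 intensity (vertical axis) of 8 genes in the normal sample (open squares) and the tumors (filled circles) of mice 41, 42 and 43, with a line from each normal to each tumor of the same animal. Lines rise in all 7 tumors for Ifitm3, Usp18 and Ddx58 and fall in all 7 for Oas1a, Ifih1 and Trim25, while Isg15 and Igtp rise in some tumors and fall in others.

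Groups did not overlap in 5 genes of the list with the tumors higher, 13.5% against 21.4% of all genes, and in 6 with the tumors lower, 16.2% against 20.0% of all genes. These were all 5 of the higher genes and 6 of the 10 lower ones, namely Irf1, Irf7, Irf8, Ifih1, Trim25 and Psmb10. The 4 OAS genes were the called genes whose groups overlapped.

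The genes that were not called differed from tumor to tumor together. Tumor 2 of mouse 41 had the highest level of the 7 tumors in 31 of 37 genes, where the same tumor was highest in 11.0% of all genes. It was the highest tumor for all 22 genes that were not called and for 7 of the 10 lower ones. Its level exceeded the mean of the other 6 tumors in 34 of 37 genes, and the difference had a median of 0.73 on the log2 scale and a highest value of 1.46. The 3 genes below that mean were Ifitm1, Ifitm2 and Ifitm3. Ifit2 read 11.09 in this tumor against 9.14 to 10.15 in the other 6, Isg15 11.73 against 9.93 to 10.97, and Gbp3 10.47 against 8.77 to 9.69.

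At the other end, tumor 3 of mouse 42 was the lowest of the 7 tumors in 17 of 37 genes, against 10.5% of all genes. The tumor of mouse 43 took another order by role. Its GTPases lay 0.56 and its class I group 0.31 above the mean over the arrays, the second highest tumor in both, while its OAS genes were at -0.49 and its RNA sensing genes at -0.26. The OAS mean of the tumors ran from -0.81 to 0.63 and the GTPase mean from -0.58 to 1.08, both highest in tumor 2 of mouse 41. Over the 7 tumors, Pearson's r between pairs of the 22 genes that were not called had a median of 0.74 and ran from 0.17 to 0.99. This r describes arrays that share one normalization and 3 animals, and r over all genes was not computed. The 22 genes were also picked by the call in these same tumors, and a wide spread among tumors makes a call harder.

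The normals were ordered too. The normal of mouse 41 was the highest of the 3 in 33 of 37 genes, against 37.3% of all genes, and the normal of mouse 42 the lowest in 32 of 37, against 30.4% of all genes. Ifit2 read 10.30 in the normal of mouse 41 and 8.23 in that of mouse 42, and Ifi44, an interferon-induced gene, 9.79 and 7.79. In these genes the spread between the normals was as wide as the spread between the tumors. Each animal gave a single normal array, so animal, dissection and array cannot be told apart. The normal of mouse 42 also had high squamous keratin genes, with a mean deviation of 2.38, and their part in this order was not tested.

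**Figure D3:**
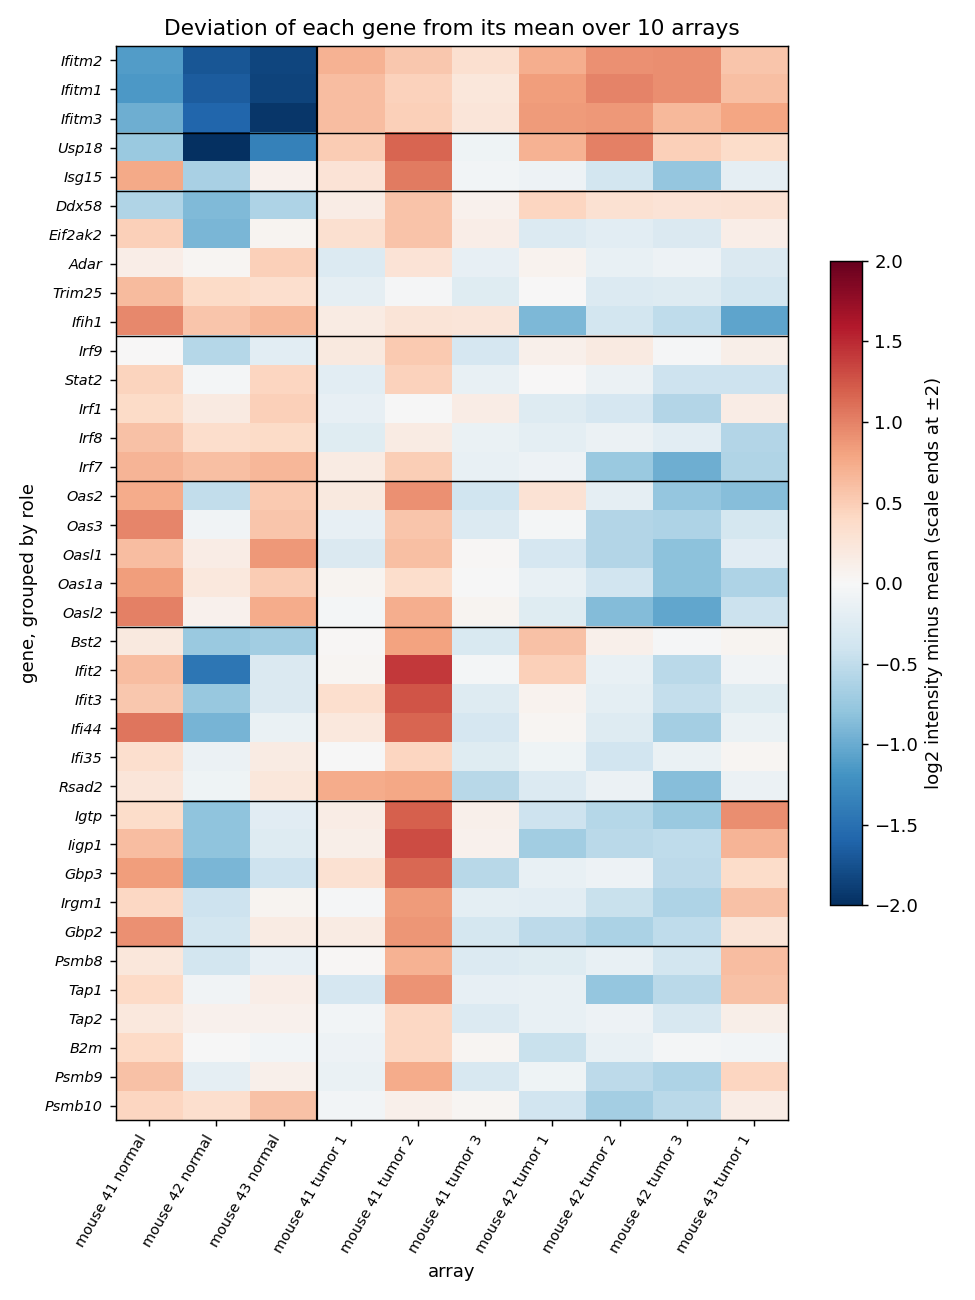
Deviation of the log2 intensity of each of the 37 genes (rows, grouped by role) from its own mean over the 10 arrays (columns), red above and blue below that mean, with the colour scale ending at 2 log2 units either way. The column of mouse 41 tumor 2 is red in most rows, the column of the mouse 42 normal is blue in most, and the 3 Ifitm rows are blue in all normals and red in all tumors.

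Tumor 2 of mouse 41 also had the highest T and NK cell marker mean of the 7 tumors, 0.39 against -0.11 to 0.35 in the other 6. It was the highest tumor for Cd3e, Cd3d, Cd3g and Nkg7, with Cd3e at 8.91 where the other 6 tumors read 7.78 to 8.69. Another tumor was highest for Zap70, Cd4, Cd8b1, Gzma and Klrb1c, with Zap70 at 9.64 in tumor 2 of mouse 41 and up to 10.03 elsewhere. Its dendritic cell marker mean was the highest as well, 0.44 against -0.03 to 0.25, and so was its endothelial marker mean, 0.42 against -0.07 to 0.39. Its macrophage mean of 0.54 lay within the range of the other tumors, 0.10 to 0.71. The summed intensity of 9 measured T and NK cell markers ran from 3701 to 3764 in the normals and from 3922 to 5244 in the tumors, with Ncr1 and Prf1 above background on 0 arrays. Of these markers, Zap70 alone was called higher, and none was lower. The part of these cells in the level of the interferon genes was not tested. This tumor was 1 of the 4 tumors scanned in a later session after a repeated dip or scan. A fit without this tumor and without the mouse term was added after the high levels of this tumor had been seen. In that fit, 5 genes of the list were called higher and 12 lower, the added ones being Stat2 and Adar. The counts were 13.5% and 32.4% of the list, against 24.0% and 22.4% of all genes in that fit.

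The 4 later-scanned arrays are all tumors, and the earlier session held all 3 normals and 3 tumors of mice 41 and 42. With the session as a further block, 5 genes were called higher and 13 lower, the latter now with Stat2 (-0.67), Tap2 (-0.40) and Psmb9 (-0.62). The 13 lower genes are 35.1% of the list, against 17.9% of all genes in that fit, and the 5 higher ones 13.5% against 18.6%. Within the earlier session alone, 4 were called higher and 12 lower, 10.8% and 32.4% of the list against 11.3% and 11.0% of all genes, and Isg15 differed by -0.41 (adjusted p = 0.163). Taking all 37 genes, the median difference was -0.16 over all arrays, -0.41 once the session was a block and -0.39 inside the earlier session, while it was -0.02 with median scaling.

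**Figure D4:**
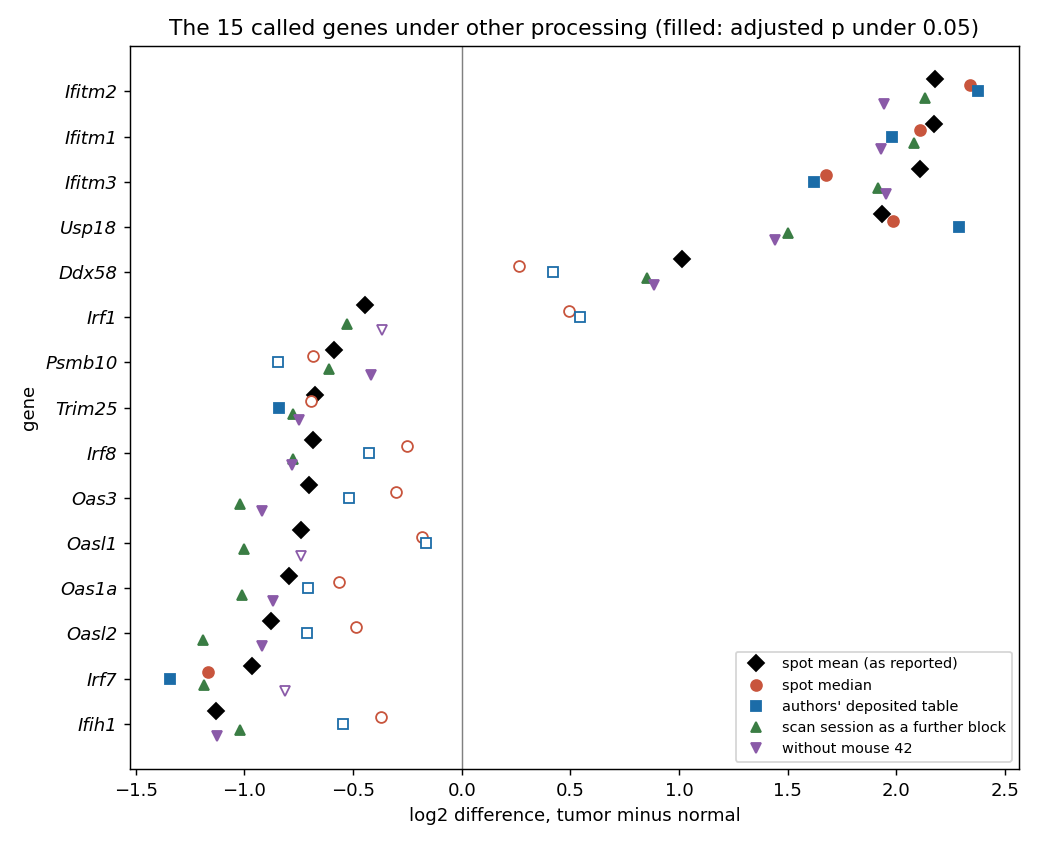
Log2 tumor minus normal difference (horizontal axis) of the 15 called genes with the spot mean as reported, the spot median, the authors' deposited table, the scan session as a further block and without mouse 42, where filled symbols have an adjusted p under 0.05. The Ifitm genes and Usp18 stay filled between 1.44 and 2.38, whereas Irf1 changes sign and the OAS genes are open with the spot median and in the deposited table.

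The tumors of mouse 42 were set against the tumors of mouse 41, 3 against 3, with means per mouse and tissue. In this comparison animal and sex cannot be told apart. Tumors 1 and 2 of mouse 42 but only tumor 2 of mouse 41 were scanned in the later session, and this fit has no session term. With limma, 0 genes of the list were called at an adjusted p under 0.05, where 0.221% of all genes were. At an unadjusted p under 0.05 there were 16 of 37, 43.2% against 17.3% of all genes. The difference was below 0, with mouse 42 lower, for 30 of 37 genes, 81.1% against 48.2% of all genes. Leaving out 1 tumor at a time gave 26 to 34 genes below 0 and 9 to 24 with an unadjusted p under 0.05. The 9 came without tumor 3 of mouse 42 and the 24 without tumor 3 of mouse 41, while without tumor 2 of mouse 41 there were 13. There were also 9 with the spot median, and 10 in the authors' deposited table. The matching shares of all genes were not computed for these alternatives, so their counts cannot be compared with all genes.

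The lowest adjusted p was that of Ifih1, which averaged 9.22 in the tumors of mouse 41 and 8.41 in those of mouse 42 (difference -0.81 ± 0.14, adjusted p = 0.085). Psmb10 averaged 12.09 and 11.53 (-0.57 ± 0.10, adjusted p = 0.0884), and Eif2ak2 10.45 and 9.85 (-0.61 ± 0.12, adjusted p = 0.104). Igtp and Iigp1 had larger differences with larger errors, -1.06 ± 0.28 and -1.08 ± 0.31 (adjusted p = 0.148 and 0.167). The Ifitm genes went the other way, with Ifitm1 higher in the tumors of mouse 42 by 0.48 ± 0.12 (adjusted p = 0.134).

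The difference between the tumor effects, mouse 42 minus mouse 41, was tested in the same fit and rests on 1 normal per animal. With limma, 0 genes of the list were called, where 0.401% of all genes were, and 5 of 37 had an unadjusted p under 0.05, 13.5% against 7.14% of all genes. These 5 were Ifitm1 (0.99 ± 0.23), Ifitm2 (0.94 ± 0.24), Ifitm3 (0.95 ± 0.24), Usp18 (1.49 ± 0.59) and Eif2ak2 (0.79 ± 0.24), each with the larger effect in mouse 42. The lowest adjusted p of them was 0.328.

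Other genes of the pathway, taken from lists made for this purpose, were called in both directions. Over all genes, 25.9% were called higher and 23.7% lower, and no list was tested against these shares. Among the interferon ligands, Ifna1, Ifna2, Ifnb1, Ifng, Ifnk and Ifnl3 were above background on 0 arrays. Ifna4 and Ifnl2 were not measured either, for want of a probe or of 3 arrays above background. Of 6 measured receptor chains, 2 were higher and 2 lower. Ifnar2, a chain of the type I receptor, was higher by 1.12 ± 0.09 (adjusted p = 3.64e-05), and its partner Ifnar1 by 0.41 ± 0.11. Ifngr1, of the interferon gamma receptor, was lower by 0.40 (-0.40 ± 0.08), and Il10rb, a chain shared with the type III receptor, differed by -0.43 ± 0.07 and was also lower.

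Of 12 measured genes of signalling and feedback, 3 were higher and 2 lower. Socs3, an inhibitor of cytokine signalling, was higher by 1.53 ± 0.19 (adjusted p = 0.000239), Irf5 by 0.89 ± 0.20 and Stat3 by 0.55 ± 0.11, whereas Irf2 was lower (-0.87 ± 0.12). Of 9 other nucleic acid sensors and adaptors, 1 was higher and 4 lower. Mavs, the adaptor of RIG-I and MDA5, was lower (-0.77 ± 0.08, adjusted p = 8.5e-05), as were Ticam1 (-0.60 ± 0.11) and Tlr3 (-0.41 ± 0.07), while Tlr7 was higher (0.59 ± 0.09).

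Of 15 measured class I heavy chains and loading genes, 5 were higher and 2 lower. Mr1, a class I-like molecule that presents metabolites, was higher by 0.85 ± 0.10, and Cd1d1, which presents lipids, by 0.44 ± 0.14. Erap1, a peptide-trimming enzyme, was lower (-0.35 ± 0.06). H2-Q1 was above background in the 3 normals and in 0 of 7 tumors, at least 1.76-fold higher in the normals (adjusted p = 5.96e-05). Of 36 further interferon-induced genes, 7 were higher and 7 lower. Irgm2, a GTPase related to Irgm1, was higher by 0.79 ± 0.12 and Lgals3bp by 0.50 ± 0.10, whereas Parp12 (-0.70 ± 0.11) and Mov10 (-0.69 ± 0.12), both antiviral proteins, were lower. Across these 36 genes tumor 2 of mouse 41 again had the highest mean of the tumors, 0.54 against -0.26 to 0.17 in the other 6.

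Markers of other cells moved between the groups as well, where 25.9% of all genes were called higher and 23.7% lower. Besides fibroblasts and macrophages, 6 of 7 endothelial, 5 of 7 neutrophil, 3 of 5 dendritic cell and 3 of 5 plasmacytoid dendritic cell markers were higher and none of these was lower, while Siglech, the defining marker of the last, was not called (-0.14 ± 0.08). Of the 4 measured B cell markers, 2 were lower, with sums of 4038 to 6553 in the normals and 1600 to 8849 in the tumors. Of 10 colon epithelial markers, 6 were lower and 1 higher. Irf8 and the GTPases are made by several of these cell types, and the part of cell composition in their values was not tested.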

How the data were processed

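Per the file headers, the deposited scanner files hold linear spot intensities, not normalized, read at 635 nm from 38880 spots of the MEEBO oligonucleotide set. Per the labels, total RNA was amplified to biotin-labelled cRNA and stained with Alexa-647. The authors' deposited table of processed intensities was used as an alternative.

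Spot means were corrected for the median local background by normexp with an offset of 50, and gene probes were then quantile normalized on the log2 scale. Accessions were paired with symbols through a RefSeq table of GRCm38.p6, which named 22987 of 34312 probes, and 5232 kept their accession. A probe was above background where its background-subtracted mean exceeded the 99th percentile of 432 null spots. A gene was tested through its brightest probe among those above background on 3 or more arrays, which gave 14478 genes. The limma functions lmFit and eBayes compared tumors with normals, with the mouse as a block and Benjamini-Hochberg adjustment over all genes, and the tumors of mice 42 and 41 with means per mouse and tissue. The pairing comes from the animals in the labels, and deviations of the normals and tumors of mice 41, 42 and 43 correlated at 0.05, 0.03 and -0.08. The fits were tested on simulated data.

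The members, their roles and the other gene lists were chosen with earlier results of these data known. All members are named, with values on the arrays for the called ones and for up to 3 of each role with the lowest p, and up to 4 genes of each other list. A gene of the signalling list is not reported here and was left out of its counts. Alternatives changed the background correction, spot value, normalization, filter, probe choice, block, session, and left-out arrays or mice. Fits were made in limma 3.58.1 under R 4.3.3, and sequences, tables and figures in Python 3.11.15 with matplotlib 3.10.9, numpy 2.4.6 and pandas 2.3.3.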

Additional observations from a re-analysis of the deposited data

Results flagged for a closer look

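B2m was also spotted among the control spots of the array, which the comparison of tumors and normals did not use. The 20 control spots with the B2m accession and the prefix mCP were above background on all 10 arrays, with a median log2 level of 14.54 after scaling each array to a common median. Their tumor minus normal difference ran from 0.06 to 0.33 with a median of 0.19, where the gene probe of B2m differed by -0.18 ± 0.13. Neither set of values was called, the control spots having no test. The gene probe was far dimmer, with a mean level of 7.45 after quantile normalization. Control spots of B2m with other prefixes varied widely. Their mean levels ran from 5.87 to 14.76 and their differences from -0.21 to 0.44, and the dimmest were above background on 0 arrays. Tumor 2 of mouse 41 was the highest of the 7 tumors on 18 of the 20 control spots, as it was for the gene probe, and the tumor of mouse 43 on the other 2. Among the 37 measured genes, 0 had a tumor far outside the other tumors by Dixon's criterion, against 8.41% of all genes. The normals were not checked in this way.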

How the results depend on the processing

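Over 28 alternatives for each of the 37 genes, 979 results kept their side of the threshold, 37 lost the call, 18 gained one and 2 reversed. The fit without mouse 43, without its normal or without its tumor is the same, so its results are counted more than once. A reversal here is a change of sign where the gene was called in at least 1 of the 2 fits. Sign changes of genes called in neither fit are counted in the 979. Among them, Ifit2 ran down to -0.13 from 0.52 as reported, and Ifi44 up to 0.38 from -0.04. The reversals were those of Irf1, at 0.49 with the spot median and 0.54 in the authors' deposited table, where the cause was not tested. With the spot median, 4 genes of the list were called higher and 1 lower, of 1354 and 1386 over all genes, and with the authors' deposited values 4 and 2, of 1569 and 1368, against 5 and 10, of 3749 and 3438, as reported. The share of all genes called was 18.9% and 22.8% there, against 49.6%. All genes called higher and lower came to 1634 and 1588 within the earlier session and to 2053 and 1937 without mouse 42, with fewer arrays in both. Without mouse 41, 8 genes of the list were called higher and 9 lower, 21.6% and 24.3% of the list against 21.4% and 18.8% of all genes. Leaving out 1 array at a time gave 5 to 7 higher and 7 to 12 lower genes of the list. Over all genes it gave 2575 to 3882 higher and 2412 to 3478 lower. With median scaling, 61.1% of all calls were higher, against 52.2%, and Irf9 was added to the list's calls and Oas3 lost. The mouse pairs the samples through the animals, and with no replicate block 5 genes of the list were called higher and 9 lower. Those were 13.5% and 24.3% of the list, against 25.3% and 23.6% of all genes. Between the tumors of mice 42 and 41, all genes called numbered 32 as reported, 1 with the spot median, 146 with median scaling, 16 in the deposited table, 21 without a filter or with the mean of all probes, and 2 to 111 when leaving out 1 tumor. Of these, 2 genes of the list were called with median scaling, Ifih1 (-0.88) and Psmb10 (-0.69). For the difference of tumor effects, alternatives added after seeing the data gave 9 genes with the spot median, 23 with genes above background on all arrays, and 30 to 61 when leaving out 1 tumor, against 58. Changes of Isg15, the GTPases and the other genes with wide spread between normals may go undetected with 10 arrays.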
